A study of Drosophila melanogaster with 12 samples.

Results

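The genes described here encode structural proteins of the insect cuticle and of the peritrophic matrix, the chitin sheet that lines the midgut. They were chosen by symbol, with earlier results of these data known. They are the genes with a probe set of 1 symbol that begins with Cpr and a number, Lcp, Ccp84A, Pcp, Edg, TwdL or Peritrophin, or is Acp1 or Acp65Aa. This gave 78 probe sets and, with the brightest probe set kept for each gene, 76 genes of 10844 on the array, and no probe set carried a TwdL symbol. They comprise 58 Cpr genes, 5 larval cuticle (Lcp) genes, 4 Ccp84A genes, Pcp and 3 Edg genes, 3 peritrophins, and Acp1 and Acp65Aa. The study measured RNA of whole Drosophila melanogaster on 12 arrays, 1 for each hour from 1 to 12 after yeast was returned to adults. The flies of all arrays had eaten full food until early in their last larval instar and food lacking yeast from then until some days after emergence. Neither the strain, the sex nor the number of flies per array is known from the labels. Because each hour has 1 array, the p-values set the slope against the scatter of single arrays about the fitted line. That scatter can be technical. The hour cannot be told apart from the flies' age, the time of day, or the order in which samples were handled and hybridised.

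Cuticle is secreted by the epidermis as layers of chitin fibres bound by proteins, most of which carry the Rebers and Riddiford domain that gives the Cpr family its name. Larva, pupa and adult each make a cuticle of their own, under the control of ecdysone, and the names Lcp, Pcp, Edg (ecdysone-dependent gene) and Acp record the stage or hormone with which the first genes were found. In the adult, cuticle deposition goes on for some days after emergence. Many of these genes lie in clusters of neighbouring copies, and the number and letter in a name give the chromosome band. Acp1 and Acp65Aa stand for adult cuticle protein and are unrelated to the accessory gland peptides that carry the same prefix. Peritrophins bind chitin in the peritrophic matrix, which food passes on its way through the midgut. RNA of whole flies cannot tell a loss of RNA per cell from a smaller number of the cells that make it.

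Most of these probe sets were dim, as were most on the array. Of the 76 genes 33 were brighter on all 12 arrays than every 1 of 19 control probe sets without a fly target, 27 were so on no array and 16 on some. The highest of these controls read between 98.1 and 114.2 at hours 1 to 11 and 135.2 at hour 12, and 39 genes lay above it at hours 1 to 11. Among the genes of larva and pupa, above it on all 12 arrays were 1 of 5 Lcp genes, Lcp65Aa, and 0 of the 4 Pcp and Edg genes. Both adult cuticle genes and all 4 Ccp84A genes were above the controls on all 12 arrays. Of the 58 Cpr genes 25 were, namely 12 of 28 on chromosome arm 3L, 6 of 17 on 2R, 4 of 5 on 3R, 2 of 4 on 2L and 1 of 4 on X. Of the 3 peritrophins, Peritrophin-15a was above the controls on all arrays, Peritrophin-15b on 11 and Peritrophin-A on none. Intensities under a floor of 57.2 (the 20th percentile over all arrays) were set to it, and 68 genes that exceeded it on at least 3 arrays were tested. The other 8, Cpr49Ad, Cpr49Ah, Cpr51A, Lcp65Af, Cpr67Fa2, Cpr78E, Cpr97Eb and Peritrophin-A, were at or under the floor on nearly all arrays, 5 of them on all 12. Of the 68 tested genes 33 were above the controls on all 12 arrays, against 5621 of all 11586 tested probe sets, a like share.

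Over the 12 hours 6 transcripts changed and 62 did not pass. The 2 adult cuticle genes, Acp1 and Acp65Aa, rose, and Cpr67B, Peritrophin-15a, Cpr72Ec and Cpr64Aa fell. The test was a straight line on hour in limma, whose slope is printed as the log2 change over the time from hour 1 to hour 12, with Benjamini-Hochberg adjustment over all 11586 tested probe sets and a threshold of 0.05. In it 6 of 68 genes passed (8.82%), against 13.4% of all tested probe sets. The 2 that rose are 2.94% of the genes, against 8.44% of all probe sets, and the 4 that fell are 5.88%, against 4.97%. All 6 were among the 33 genes above the controls on every array, where 18.5% of all probe sets that bright passed. The median fitted change was 0.02 over the 68 genes and 0.01 over all probe sets. Fitted changes of the 62 that did not pass lay between -0.50 and 0.47, and 52 of them were within 0.15 of 0. These counts depend on the settings. After quantile normalization 1 rose and 5 fell, and without the 5 arrays that hold male transcripts 0 rose and 3 fell. With a measure of RNA quality (actin's 3' minus 5' control signal, log2) as covariate 0 rose and 1 fell. The shares of all probe sets that passed under these settings are not given here. Fewer calls there cannot be read as particular to these genes.

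**Figure D1:**
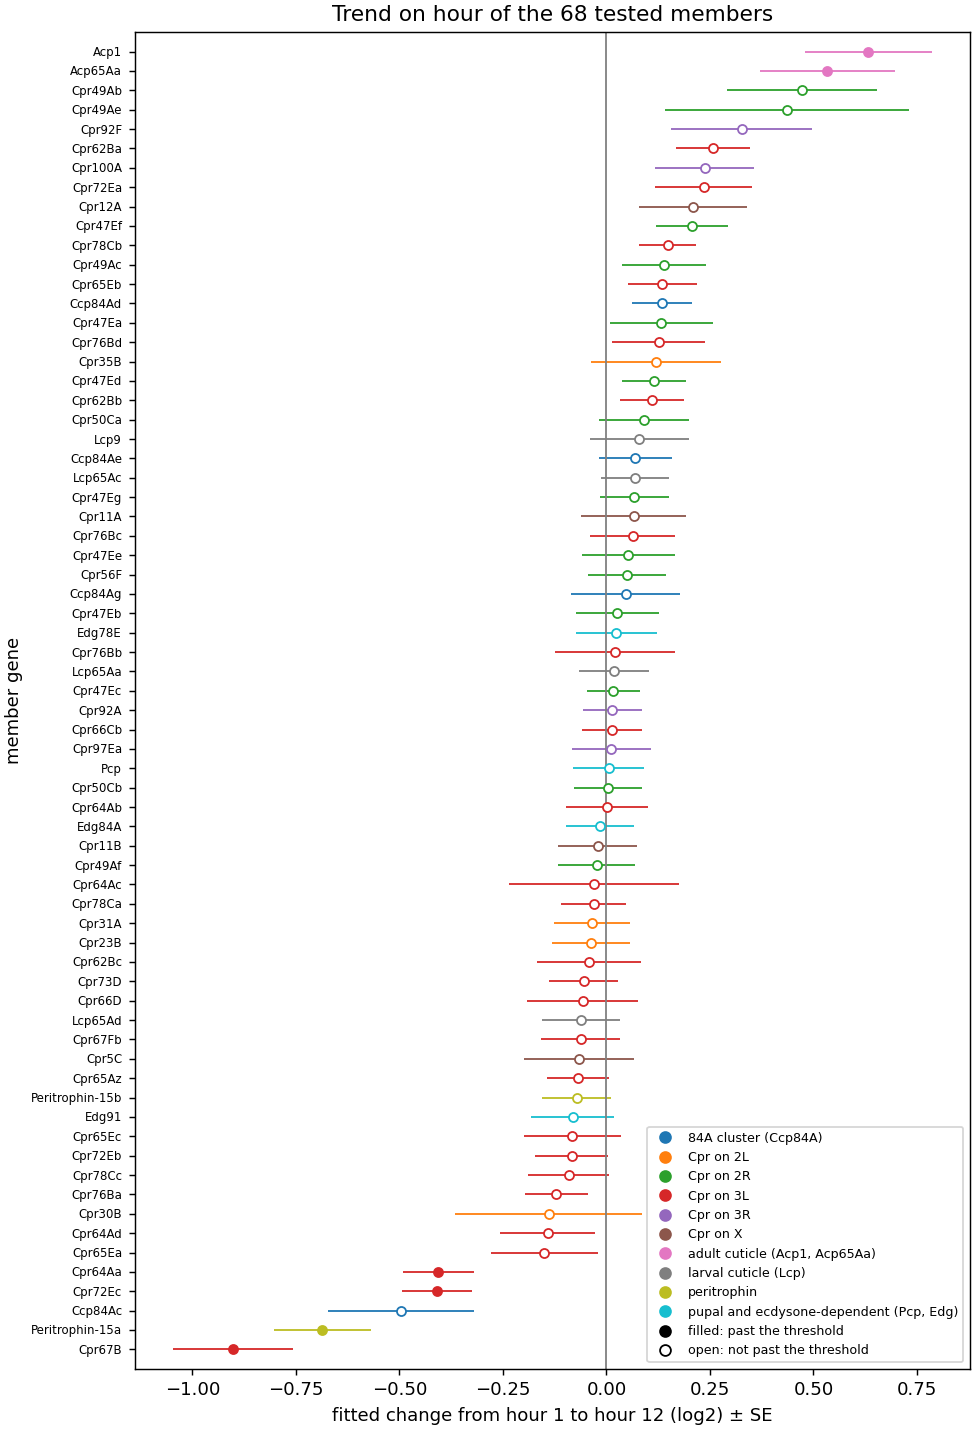
Fitted log2 change from hour 1 to hour 12 with its SE for each of the 68 tested genes (points, coloured by gene group, filled where the limma adjusted p was under 0.05). The points run between -0.90 for Cpr67B and 0.63 for Acp1, with 52 of the 62 open points within 0.15 of 0.

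Acp1, a cuticle gene of the adult, read 759.1, 718.0, 931.2 and 1028.8 at hours 1 to 4, then 900.2, 919.9, 853.8 and 1096.1 at hours 5 to 8, and 1307.5, 1301.2, 1035.0 and 1098.1 at hours 9 to 12. It was lowest in the first hours and highest at hours 9 and 10, and its last 4 values all lay above its first 4. The fitted change was 0.63 ± 0.15 (SE, n = 12 arrays), 1.55-fold (limma adjusted p = 0.0144). Acp65Aa, an adult cuticle gene next to the larval cuticle genes of band 65A, read 112.8, 120.4, 130.5 and 139.7 at hours 1 to 4, 129.3, 132.8, 107.9 and 171.6 at hours 5 to 8, and 178.6, 187.5, 155.9 and 146.7 at hours 9 to 12. Its last 4 values also lay above its first 4, with a low point at hour 7 and its highest at hour 10. The fitted change was 0.53 ± 0.16, 1.45-fold (limma adjusted p = 0.0443). It was close to the highest control without a fly target at hour 7, with 107.9 against 98.1, and at hour 12, with 146.7 against 135.2. Both genes were higher in hours 9 to 12 than in hours 5 to 8 only at an unadjusted p under 0.05, by 0.33 ± 0.12 for Acp1 and 0.32 ± 0.13 for Acp65Aa (limma adjusted p = 0.631 and 0.647). Neither call was firm. That of Acp1 was lost without hour 1 (limma adjusted p = 0.0551) or hour 2 (0.0532), and that of Acp65Aa on leaving out any 1 of 10 hours, with changes between 0.45 for hour 10 and 0.57 for hour 11, and was kept without hour 7 or hour 12. Hours 9 and 10, the highest of both genes, are among the 5 arrays that hold male transcripts, and without these 5 the changes were 0.42 for Acp1 and 0.40 for Acp65Aa (limma adjusted p = 0.138 and 0.292). With the actin measure of RNA quality as covariate they were 0.59 and 0.22 (limma adjusted p = 0.333 and 0.825). That measure itself tended to fall over the hours.

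**Figure D2:**
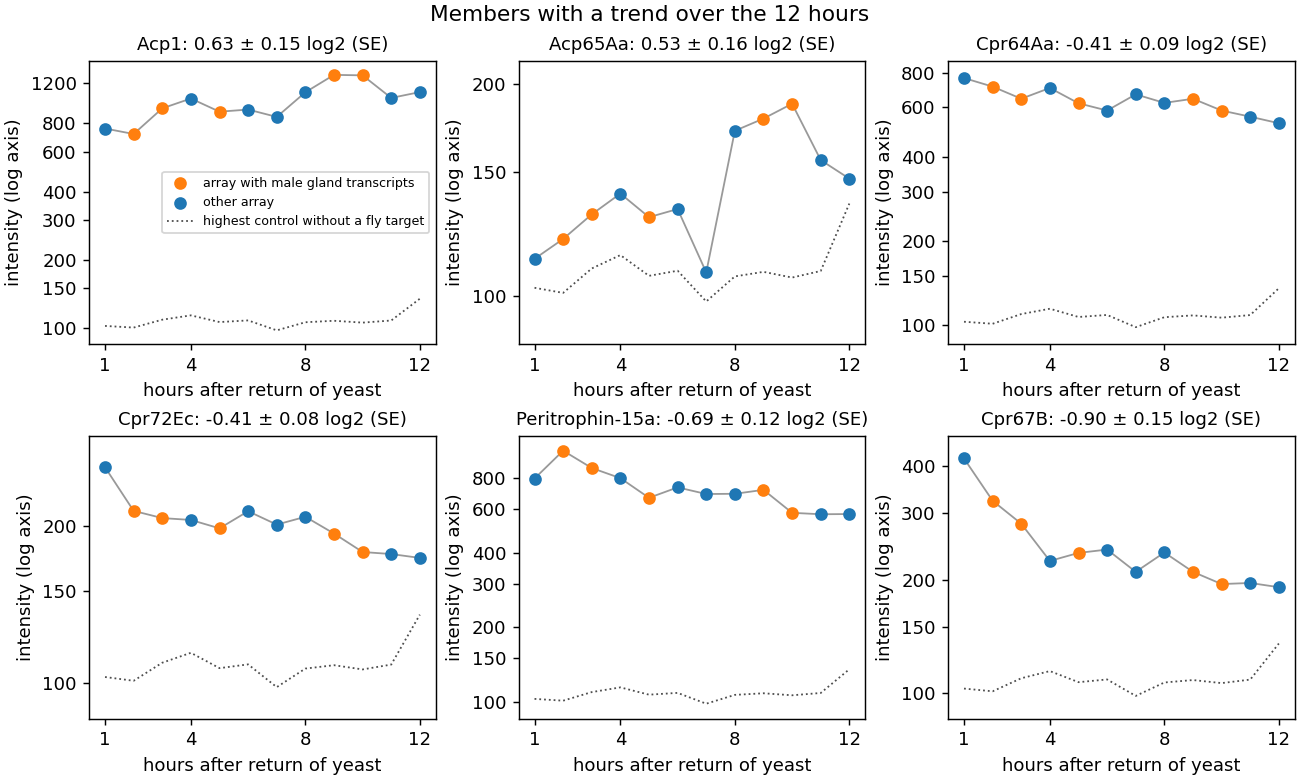
Intensity (log axis) against hours after the return of yeast for the 6 genes past the threshold, with the highest control without a fly target as a dotted line and the arrays that hold male gland transcripts in orange. Acp1 and Acp65Aa are highest at hours 9 and 10, Cpr67B falls most over the first 4 hours, and Acp65Aa lies near the controls at hours 1, 7 and 12.

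Of the 3 peritrophic matrix genes 2 were tested and 1 fell, where 4.97% of all tested probe sets fell. Peritrophin-15a, a small chitin-binding protein gene, read 797.8, 1034.0, 880.0 and 800.8 at hours 1 to 4, 666.8, 734.8, 690.8 and 692.2 at hours 5 to 8, and 718.1, 579.9, 572.2 and 573.3 at hours 9 to 12. The values of hours 5 to 12 all lay under those of hours 1 to 4. The fitted change was -0.69 ± 0.12, 0.621-fold (limma adjusted p = 0.00223), and it passed in every alternative tried, with values between -0.86 with the actin covariate and -0.55 without the arrays that hold male transcripts. Its neighbour Peritrophin-15b read between 119.8 and 137.9, close to the controls, and had a fitted change of -0.07 ± 0.08 (limma adjusted p = 0.69). Peritrophin-A was at or under the floor on all arrays, at 49.5 or lower. Of 12 listed genes of midgut digestion, 11 were on the array and 10 tested, of which 4 rose, 1 fell and 5 did not pass (8.44% and 4.97% of all probe sets rose and fell). Their summed intensity ranged from 13924 at hour 3 to 19175 at hour 6.

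Among the Cpr genes 3 of 52 tested fell and 0 rose, against 4.97% and 8.44% of all tested probe sets. The 3 lie on chromosome arm 3L, as do 26 of the 52 tested Cpr genes. Cpr67B read 419.9, 324.1, 281.6 and 224.2 at hours 1 to 4, 235.5, 240.4, 209.7 and 236.1 at hours 5 to 8, and 209.7, 194.6, 195.9 and 190.9 at hours 9 to 12. Most of its fall lay within the first 4 hours, and its fitted change was -0.90 ± 0.15, 0.535-fold (limma adjusted p = 0.00158). Without hour 1 the change was -0.69 (limma adjusted p = 0.00534). Cpr72Ec read 259.6, 214.0, 207.3 and 205.6 at hours 1 to 4, 198.1, 213.7, 201.4 and 208.5 at hours 5 to 8, and 193.6, 178.4, 176.8 and 173.8 at hours 9 to 12. It was highest at hour 1 and lowest at hour 12, with a fitted change of -0.41 ± 0.08 (limma adjusted p = 0.00605). Cpr64Aa read 764.5, 712.3, 644.6 and 704.5 at hours 1 to 4, 621.0, 584.9, 668.3 and 622.9 at hours 5 to 8, and 644.5, 584.9, 556.0 and 526.8 at hours 9 to 12. The early and late windows of Cpr64Aa met at 644.6 and 644.5, and its fitted change was -0.41 ± 0.09 (limma adjusted p = 0.00677). These 3 calls were kept without each single hour. All 3 were lost with the actin measure of RNA quality as covariate (limma adjusted p = 0.0513 for Cpr67B, 0.12 for Cpr72Ec and 0.353 for Cpr64Aa). The changes were then -1.05, -0.49 and -0.31. That measure was itself 0.93 to 1.13 at hours 1 to 4 and 0.69 to 0.82 at hours 9 to 12. A fit with both therefore separates it poorly from hour. The call of Cpr67B was also lost without the 5 arrays that hold male transcripts (limma adjusted p = 0.0541).

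The neighbours of these genes on the chromosome did not pass. In band 64A, Cpr64Ab ranged from 367.5 to 453.2 with a fitted change of 0.00 ± 0.10, and Cpr64Ac read 747.4 at hour 9, against 407.3 to 581.9 at the other hours, with a fitted change of -0.03 ± 0.21. Cpr64Ad, under the controls on all arrays, changed by -0.14 ± 0.12. None of these 3 passed (limma adjusted p = 0.997, 0.961 and 0.523). In band 72E, Cpr72Eb next to Cpr72Ec ranged from 151.2 to 189.5, and its fitted change was -0.08 ± 0.09 (limma adjusted p = 0.65). The differences between neighbours were not tested. Copies of a cluster can hybridise to each other's probes, which was not tested, and 6 probe sets that carry the symbols of several genes were left out.

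In band 49A, Cpr49Ab and Cpr49Ae had their lowest value at hour 7 and their highest at hour 9, without a trend past the threshold. Cpr49Ae read 273.9, 270.3, 322.1 and 282.8 at hours 1 to 4, 295.8, 295.6, 163.7 and 398.6 at hours 5 to 8, and 452.3, 426.3, 303.2 and 335.3 at hours 9 to 12. With 1.47 log2 units it had the widest range of the 76 genes, and its fitted change was 0.44 ± 0.29 (limma adjusted p = 0.42). Cpr49Ab was at 107.1 in hour 7, at 187.4 in hour 8 and at 187.6 in hour 9, against 115.9 to 161.6 at the other hours, with a fitted change of 0.47 ± 0.18 (limma adjusted p = 0.111). Between them, Cpr49Ac did not pass (0.14 ± 0.10, limma adjusted p = 0.464), Cpr49Ad was not tested, and Cpr49Af on the far side had a change of -0.02 ± 0.09 (limma adjusted p = 0.927). Acp65Aa, on another chromosome arm, shared the low point at hour 7. A further gene with a wide range, Cpr30B, was highest at hour 9 with 320.1 and lowest at hour 12 with 149.6, and lay between 174.3 and 242.9 at the other hours (fitted change -0.14 ± 0.23, limma adjusted p = 0.794).

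**Figure D3:**
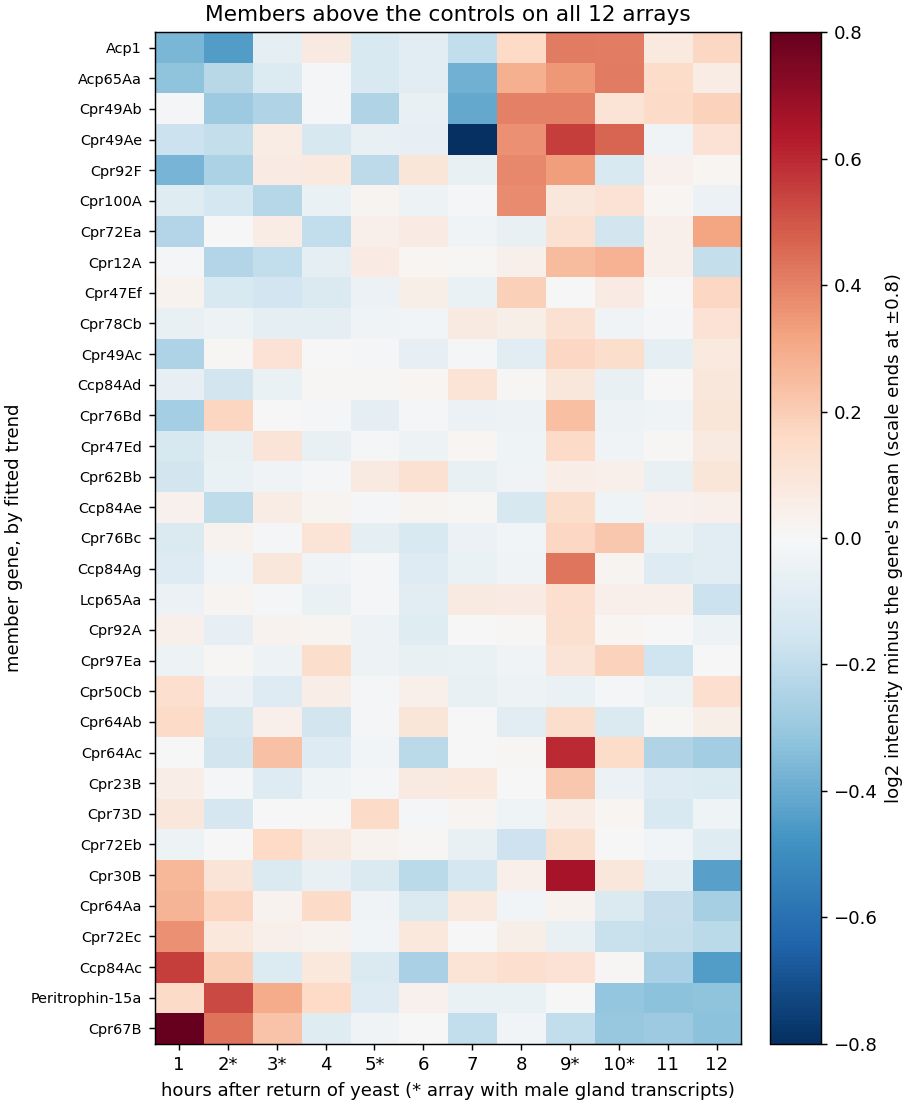
Log2 intensity minus each gene's mean over the 12 arrays (colour) by hour (columns, asterisks for arrays that hold male gland transcripts) for the 33 genes above the controls on all arrays, ordered by fitted trend. Acp65Aa, Cpr49Ab and Cpr49Ae are lowest at hour 7 and high at hours 8 and 9, and Acp1 is lowest at hour 2. Cpr30B and Cpr64Ac stand out at hour 9, and Cpr67B, Peritrophin-15a, Ccp84Ac and Cpr72Ec are highest in the first 2 hours.

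The other gene groups had 0 calls in the trend. All 4 Ccp84A genes did not pass, with changes between -0.50 and 0.13. Ccp84Ac was highest at hour 1 with 315.0 and lowest at hour 12 with 157.7, and lay between 179.2 and 244.7 otherwise, and its change of -0.50 ± 0.18 missed the threshold (limma adjusted p = 0.0806). It was called after quantile normalization at -0.54 (limma adjusted p = 0.0471), on log2 of hour (0.0398) and without hour 3 (0.0486), while without hour 1 its change was -0.31 (limma adjusted p = 0.331). Its neighbour Ccp84Ad, measured by a probe set of the kind that can bind several members of a gene family, had a change of 0.13 ± 0.07 (limma adjusted p = 0.29). The 4 tested larval cuticle genes lay between -0.06 and 0.08, with Lcp65Ac at 0.07 ± 0.08 (limma adjusted p = 0.698), and Pcp and the 3 Edg genes between -0.08 and 0.02, with Edg91 at -0.08 ± 0.10 (limma adjusted p = 0.714). Of the Cpr genes on 3R, Cpr100A read 454.7 to 512.8 at hours 1 to 4, 518.0 to 690.0 at hours 5 to 8 and 514.5 to 575.3 at hours 9 to 12, with a change of 0.24 ± 0.12 (limma adjusted p = 0.239). On 2L the smallest trend p of a Cpr gene was that of Cpr35B, under the controls on all arrays, at 0.12 ± 0.16 (limma adjusted p = 0.732). On X, Cpr12A ranged from 374.3 at hour 2 to 535.4 at hour 10 and changed by 0.21 ± 0.13 (limma adjusted p = 0.372).

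Further genes are named here after their values were seen. In band 47E, Cpr47Ed ranged from 276.8 at hour 1 to 336.9 at hour 9 around a median of 298.9, and Cpr47Ef from 137.9 at hour 3 to 175.0 at hour 8, with trend changes of 0.12 ± 0.08 and 0.21 ± 0.09 (limma adjusted p = 0.419 and 0.146). Cpr47Eb, Cpr47Ec and Cpr47Ee of the same band were under the controls on all arrays. In band 76B, Cpr76Bc ranged from 155.7 to 196.6 and Cpr76Bd from 147.1 to 209.9, and neither passed (limma adjusted p = 0.795 and 0.572). In band 65E, Cpr65Ea, Cpr65Eb and Cpr65Ec were under the controls on all arrays. On 3R, Cpr92F had a median of 174.6, its lowest value of 132.5 at hour 1 and its highest of 224.2 at hour 8, and a change of 0.33 ± 0.17 (limma adjusted p = 0.261). Cpr92A ranged from 202.7 to 236.9. Over the 12 arrays the median range of the 68 genes was 0.35 log2 units, against 0.42 of all tested probe sets, and 3 (4.41%, against 5.63%) spanned more than 1 log2 unit. Of the 68, 35 were not above the controls on every array, and the floor narrows the range of the dimmest.

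Windows of 4 hours gave no further calls. Between hours 5 to 8 and hours 1 to 4, 0 of 68 genes passed in limma, against 1.89% of all probe sets (1.81% higher and 0.0777% lower), and 4 had an unadjusted p under 0.05. Peritrophin-15a, Cpr67B and Cpr64Aa were the 3 lower ones, by -0.33 ± 0.09, -0.40 ± 0.14 and -0.18 ± 0.07, and Cpr100A was higher by 0.22 ± 0.09. Without hour 4 the window change of Cpr67B was -0.55 and passed (limma adjusted p = 0.0417). Between hours 9 to 12 and hours 5 to 8, 0 of 68 genes passed, as did 0% of all probe sets, and the 3 with an unadjusted p under 0.05 were Acp1, Acp65Aa and, at -0.19 ± 0.08, Cpr72Ec. In the quadratic term on hour 0 genes passed, against 0.0345% of all probe sets (0.0173% in each direction), and 1, Cpr67B, had an unadjusted p under 0.05. Shares of all probe sets at that unadjusted threshold are not given here. The counts of 4, 3 and 1 genes at it therefore cannot be read as particular to these genes. Values of hours 9 to 12 lay wholly above those of hours 1 to 4 for 6 genes (8.82%, against 7.89% of all probe sets) and wholly below for 4 (5.88%, against 4.28%). Those above were Acp1, Acp65Aa, Cpr49Ab, Cpr100A, Cpr62Ba and Cpr78Cb, the last pair named after their values were seen, and those below were the 4 genes that fell.

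In the deposited values hour 9 was the most frequent hour of the highest value. Of the 68 tested genes 23 (33.8%) had their highest value there, against 21.2% of all probe sets, and 57 (83.8%) were above their own mean, against 65.8%. After quantile normalization 9 of 68 (13.2%) were highest at hour 9, against 10.5% of all probe sets. After scaling all arrays to 1 median 13 (19.1%) were, against 11.9%. Above their own mean at hour 9 were then 44 of 68 genes (against 48.2% of all probe sets) after quantile normalization. After median scaling 43 of 68 were (63.2%, against 49.2%). In each of these counts the genes' share at hour 9 stayed above that of all probe sets, but hour 9 was not alone in this. After quantile normalization 47 genes were above their own mean at hour 4 and 46 at hour 10 (against 51.9% and 52.6% of all probe sets). At hours 8 and 11 only 19 and 21 were (against 45.7% and 47.1%). The highest value then fell at hour 10 for 13 genes and at hour 4 for 11 (against 11.3% and 7.91%). Hour 9 was also the array with the highest median intensity, 120.3, where the others lay between 113.7 and 116.5. The lowest value fell at hour 1 for 13 genes and at hour 12 for 12 genes (19.1% and 17.6%, against 15.5% and 12.2% of all probe sets).

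**Figure D4:**
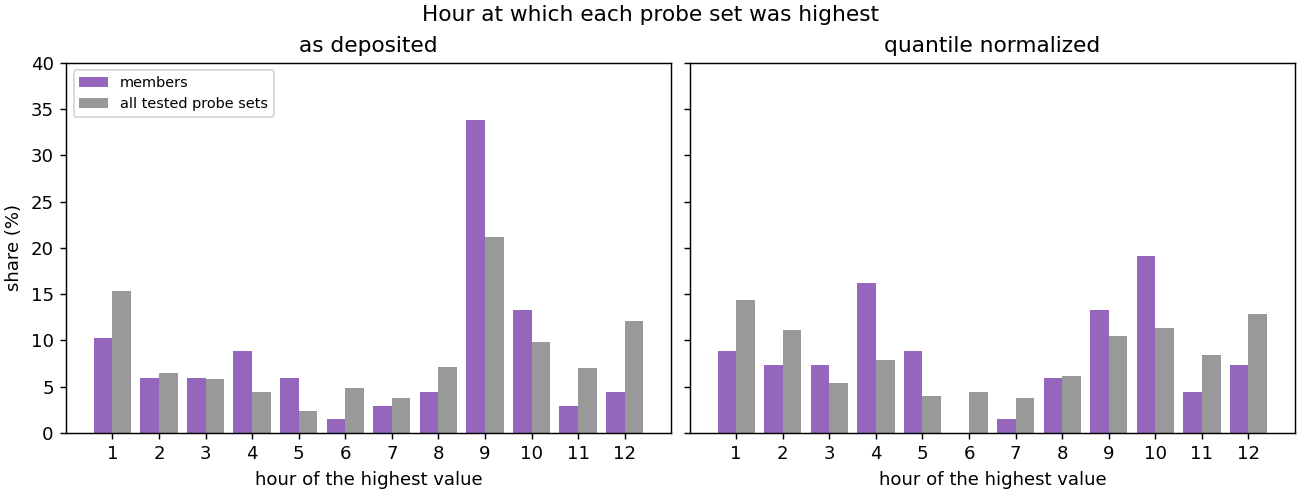
Share (%) of the 68 tested cuticle and peritrophic matrix genes (purple) and of all 11586 tested probe sets (grey) that had their highest value at each hour, for the deposited intensities (left) and after quantile normalization (right). At hour 9 the deposited values give 33.8% of the genes and 21.2% of all probe sets, and after quantile normalization hour 9 is no longer the most frequent hour in either set.

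Male transcripts differed between arrays. On the 5 arrays of hours 2, 3, 5, 9 and 10 the summed intensity of 11 male accessory gland genes of 13 listed was 901 to 1367, against 374 to 450 on the other 7. Of these 11, Acp26Aa, Acp29AB, Acp53Ea and Acp76A were at or under the floor on all arrays. That of 9 testis genes was 2415 to 3337, against 1593 to 1781. A limma fit took hour and the mean log2 of the gland genes. In it 0 of 68 cuticle and peritrophic matrix genes followed the gland genes past the threshold, against 1.29% of all probe sets (1.04% higher and 0.259% lower). An unadjusted p under 0.05 was found for 11, all of them higher with more male transcripts. The share of all probe sets at that unadjusted threshold is not given here. The highest coefficients among these 11 were 0.53 ± 0.18 for Cpr64Ac and 0.44 ± 0.11 for Cpr76Bb (limma adjusted p = 0.131 and 0.0673). Both genes were highest at hour 9, the array with the highest median intensity (120.3). The median coefficient was 0.09 log2 units per log2 unit of the gland mean over the 68 genes and 0.02 over all probe sets. With the gland mean as covariate all 6 trends passed. Without the 5 arrays, Peritrophin-15a, Cpr64Aa and Cpr72Ec passed, at changes of -0.55, -0.51 and -0.52, while Acp1, Acp65Aa and, at -0.92, Cpr67B did not. A measure of RNA quality, actin's 3' control probe set minus its 5' one on the log2 scale, was 1.13 at hour 1 and 0.69 at hour 12. It tended to fall over the hours, so a fit with both separates it poorly from hour. With this measure as covariate only Peritrophin-15a passed, at -0.86 (limma adjusted p = 0.0444). The changes of Cpr64Aa, Cpr67B and Cpr72Ec were then -0.31, -1.05 and -0.49. The part of male transcripts and RNA quality in these trends was not tested beyond these values. Genes of larval salivary gland and fat body, which would mark larvae, summed to 602 to 742 on all arrays over 6 genes of 9 listed, with Sgs3, Sgs4 and Sgs5 at or under the floor throughout. The other 3, Sgs7, Sgs8 and Lsp2, were above the controls on all 12 arrays, Sgs8 at 206.0 to 253.4 and Lsp2 at 167.3 to 270.2, and 0 of these 3 passed the trend.

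Genes that build, bind and tan chitin fell about as often as all probe sets in the same hours, and 0 rose. Of 110 genes in 6 lists 84 were on the array and 75 were tested, of which 0 rose, 4 fell and 71 did not pass. The 4 that fell are 5.33%, against 4.97% of all tested probe sets, while 8.44% of all probe sets rose. In either direction 13.4% of all probe sets passed. The 10 genes of chitin synthesis and transport on the array had 8 tested and 0 called. Chs2, the chitin synthase of the gut, ranged from 175.7 to 192.2 with a change of 0.01 ± 0.06 (limma adjusted p = 0.977), and kkv, that of the epidermis, was under the controls on all arrays. Of 20 tested chitin deacetylases and chitinases 0 passed. Of 13 tested chitin-binding matrix proteins 1 fell, the mucin-related gene Mur18B, where 4.97% of all tested probe sets fell. It read 1153.7, 1013.7, 1051.8 and 834.1 at hours 1 to 4, 782.7, 888.6, 656.2 and 825.3 at hours 5 to 8, and 706.2, 584.5, 807.1 and 696.0 at hours 9 to 12, a change of -0.70 ± 0.15 (limma adjusted p = 0.00823).

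Of 18 tested genes of tanning and pigmentation 2 fell, where 4.97% of all tested probe sets fell. Ddc, the dopa decarboxylase that makes dopamine for tanning as well as for neurons, read 199.1, 150.6, 154.5 and 139.8 at hours 1 to 4, 126.1, 139.9, 121.8 and 138.5 at hours 5 to 8, and 102.2, 93.8, 99.2 and 105.3 at hours 9 to 12. It changed by -0.87 ± 0.13 (limma adjusted p = 0.000836), and at hours 9 to 12 it was no brighter than the highest control. The other, tan (t), which also serves transmitter recycling in the eye, read 232.0 at hour 1 and 84.5 at hour 12 and changed by -1.38 ± 0.11 (limma adjusted p = 3.11e-05). It too was under the highest control at hours 9 to 12. The tyrosine hydroxylase gene ple, which supplies dopa to Ddc, had a change of 0.35 ± 0.12 that missed the threshold (limma adjusted p = 0.0622). yellow (y), needed for black pigment, was at 0.04 ± 0.10 (limma adjusted p = 0.849), and ebony (e), under the controls on all arrays, at -0.15 ± 0.10 (limma adjusted p = 0.39). Of 7 tested genes of the apical extracellular matrix 0 passed. Of 9 tested regulators of cuticle genes 1 fell, the ecdysone-responsive repressor Blimp-1, at 272.7 in hour 1 and 201.9 in hour 12 (change -0.34 ± 0.08, limma adjusted p = 0.0162). With 1 or 2 falls each, these lists are too small to set apart from the 4.97% of all probe sets that fell. The falls of Mur18B, Ddc, t and Blimp-1 are from the main fit, and no values under the alternatives are given for them.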

How the data were processed

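RNA of whole flies was hybridised to 12 Affymetrix arrays, 1 per hour. Per the labels, RNA was prepared with Trizol and dChip normalized the arrays by invariant selection. The authors deposited linear intensities, 1 per probe set and array. The dChip version was not given in the sources used here, nor its background model. The number of arrays limits the precision. The table has 14010 probe sets, 44 of them controls. The platform annotation gives 12443 probe sets 1 symbol, 327 several, and 1196 are unnamed here. All 76 symbols matched the gene table of assembly Release 6, used for names, arms and neighbours only. Intensities were floored at 57.2, and fly probe sets above it on at least 3 arrays were tested (11586), on log2 values with R 4.3.3, limma 3.58.1 and Benjamini-Hochberg adjustment at 0.05, in a procedure tested on simulated data. Named by rule were all members past the threshold, the member of smallest p in each group, the 5 widest ranges and their neighbours in a cluster. From the chitin lists the rule took genes past the threshold, and Chs2, kkv, ple, Ddc, y and e. Genes and lists were chosen with earlier results of these data known. Sequences were not used here. Alternatives were other normalizations, floors, filters, a variance trend, covariates, log2 of hour, the mean of a gene's probe sets, and arrays left out.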

Additional observations from a re-analysis of the deposited data

How the results depend on the processing

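Signal over background limits most of these genes, of which 33 of 76 were above the controls on every array. Of all 11586 tested probe sets 5621 were. The 4 falls held under most alternatives: 4 under median scaling, both other floors, both filters, the variance trend, the male covariate and the mean of probe sets, and 5 with quantile normalization or log2 of hour. With the actin difference as covariate 1 gene fell and 0 rose. Shares of all probe sets that passed the trend are given for the main fit only. The number that rose, 2 as reported, was 1 with quantile normalization, with no filter, with log2 of hour, and with the floor at the highest control without a target (135.2, added after seeing the data), and 0 without the 5 arrays that hold male transcripts. Leaving out 1 hour at a time gave 0 to 2 that rose (0 without hour 1 or hour 2), 4 to 5 that fell (5 without hour 3), a median change of -0.01 to 0.03, and 0 to 1 lower in hours 5 to 8 than in hours 1 to 4. The other window counts and the quadratic count were 0 to 0. Acp65Aa lost its call with no filter (limma adjusted p = 0.0963), log2 of hour (0.0512) and the higher floor (0.0605), and Acp1 with quantile normalization (0.0678). No named gene changed direction with a call. Over the named genes and all alternatives 590 values kept their side of the threshold, 24 lost a call and 3 gained one. Only 6 of the 25 named genes were called in the main fit. Most of the 590 values are therefore genes that stayed uncalled, and all 24 lost calls belong to these 6. No paired analysis was possible because there is 1 group of arrays, with 1 array per hour. The causes of these differences were not tested.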

Other observations

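The probe set shared by the larval cuticle genes Lcp65Ag1, Lcp65Ag2 and Lcp65Ag3 cannot be given to 1 gene and is no member above. It read 59.1, 64.3, 68.4 and 69.7 at hours 1 to 4, 73.5, 71.7, 87.1 and 87.2 at hours 5 to 8, and 91.0, 92.5, 77.0 and 76.9 at hours 9 to 12, a fitted change of 0.48 ± 0.12 (limma adjusted p = 0.0173). On all 12 arrays it was dimmer than the highest control without a fly target. A shared probe set of Cpr65Av and Cpr65Aw, above the controls on all arrays, read 233.0 at hour 1 and 155.5 to 181.6 later, and its change of -0.20 ± 0.13 did not pass (limma adjusted p = 0.377). The second probe set of Cpr66D had a change of 0.05 and that of Cpr73D one of -0.11, neither past the threshold, as for the probe sets used.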
